A study of Mus musculus with 9 samples.

Results

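The genes described here are 9 liver genes of the insulin and FoxO pathway: the insulin receptor gene Insr, the receptor substrates Irs1 and Irs2, the phosphoinositide 3-kinase subunit gene Pik3r1, the kinase gene Akt2, the transcription factor gene Foxo1, and the responsive genes Igfbp1, Igfbp2 and Txnip. They were chosen by gene name, and every non-control probe that the array files assign to one of them was taken, which gave 14 probes of 56605 and 9 gene names of 37074. Liver RNA of male mice, of the C57BL/6N strain by the methods, was measured on one-colour Agilent arrays, with 3 arrays in each of 3 groups. AAV-V animals received an empty adeno-associated virus vector and a normal diet. AAV-GP73 animals received a vector encoding mouse GP73, a Golgi protein encoded by Golm1, and a normal diet. AAV-V HFD animals received the empty vector and a high fat diet. All 9 samples are labelled as 12 months of age, while the study's text counts the same span from injection and its methods give a shorter course of high fat feeding, so the exact age and diet length are uncertain. The sources used here do not say if animals were pooled or which promoter drives the vector, so p-values below measure only the spread between these samples.

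Insulin binds its receptor, a tyrosine kinase, which phosphorylates the substrates Irs1 and Irs2. These recruit the regulatory subunit of phosphoinositide 3-kinase, and the lipid it makes brings AKT kinases, chiefly Akt2 in liver, to the membrane. AKT phosphorylates Foxo1 and keeps it out of the nucleus. In fasting, or when insulin signalling is low, nuclear FoxO factors turn on genes such as Igfbp1, Irs2 and the gluconeogenic enzymes, while insulin-induced genes such as Srebf1 fall. Txnip, a thioredoxin-binding arrestin-domain protein that restrains glucose uptake, responds to glucose through carbohydrate-response factors and to FoxO.

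Promoter sequences from RefSeq (build GRCm38.p6, 250 bases before to 50 bases after a start site) were at hand for 8 of the 9 genes, in 13 promoters. They were searched on both strands for GTAAACA, a forkhead motif, for CAAAACA, the core of the insulin response sequence, and for CACGTG, an E-box. Of all 32851 promoters in the table, 3.65% held GTAAACA, 6.28% held CAAAACA and 7.15% held CACGTG. A match was found in 5 of the genes, namely Irs1, Irs2, Igfbp1, Igfbp2 and Txnip, and in none of the promoters of Akt2, Foxo1 and Pik3r1. The 150 bases before the start site of 4 of them are printed because they show where the motifs lie, with the matches in capitals and each sequence on the strand of its gene. Irs1 and Irs2 both held the E-box next to CAAAACA on the opposite strand, read here as TGTTTTG, with an overlap of the motifs in Irs1.
Irs1, chr1:82291440-82291589, minus strand: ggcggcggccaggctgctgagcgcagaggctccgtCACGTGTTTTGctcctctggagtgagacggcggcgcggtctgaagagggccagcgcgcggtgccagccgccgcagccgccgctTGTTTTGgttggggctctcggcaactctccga
Irs2, chr8:11008930-11009079, minus strand: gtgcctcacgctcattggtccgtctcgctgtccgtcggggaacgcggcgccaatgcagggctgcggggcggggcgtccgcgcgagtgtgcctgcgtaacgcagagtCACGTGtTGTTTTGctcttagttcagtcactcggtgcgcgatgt
Igfbp1, chr11:7197637-7197786, plus strand: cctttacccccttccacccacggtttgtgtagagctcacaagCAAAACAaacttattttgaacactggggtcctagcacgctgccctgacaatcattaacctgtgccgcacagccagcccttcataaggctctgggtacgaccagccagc
Txnip, chr3:96557807-96557956, plus strand: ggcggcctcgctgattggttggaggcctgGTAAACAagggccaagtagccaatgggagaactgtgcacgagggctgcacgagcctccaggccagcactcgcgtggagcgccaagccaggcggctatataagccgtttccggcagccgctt
In Irs2 the E-box lay from base -44 to base -39 before the start site and the CAAAACA match from base -37 to base -31. In Irs1 the E-box lay from base -115 to base -110, and CAAAACA matched from -111 to -105 and again from -32 to -26. The match in Igfbp1 lay from base -108 to base -102 and that in Txnip, GTAAACA, from base -121 to base -115. Igfbp2 held an E-box from base -142 to base -137 in one of its promoters. These matches are letters in a reference sequence, and binding of a factor was not measured.

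The arrays of the groups differed in overall brightness. In AAV-V, 10.2 to 10.7% of spots were well above background by the scanner software's flag, against 16.0 to 18.4% in AAV-GP73 and 13.8 to 16.7% in AAV-V HFD, while the mean of the spike-in controls, RNA added in known amount, lay between 10.52 and 11.05 on the log2 scale in all groups. AAV-V and AAV-GP73 arrays shared a slide, and the AAV-V HFD arrays were on another, so diet and slide cannot be told apart. Each array was shifted to a common 75th percentile of the 2669 probes well above background on all 9 arrays, and the 6593 probes well above background on every array of at least 1 group were tested. On this scale the median log2 fold change of all tested probes was 0.64 for AAV-GP73 versus AAV-V, 0.41 for AAV-V HFD versus AAV-V and 0.10 for AAV-GP73 versus AAV-V HFD. The single Golm1 probe was undetected on all 9 arrays, with a signal of 1.51 to 1.81 in AAV-GP73 and 1.62 to 2.06 in AAV-V. The array therefore did not show the overexpression. Whether the probe lies within the sequence that the vector carries was not examined. All 10 hepatocyte markers were well above background on every AAV-V and AAV-GP73 array, and 9 to 10 on the AAV-V HFD arrays.

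Detection of the pathway genes was low and uneven. Of the 14 probes, 7 were well above background on no array, and Insr and Irs1 were among the genes with no detected probe. No probe of the 9 genes was detected on all 9 arrays. AAV-V replicate 1 had 2 detected probes and the other AAV-V arrays had 0. The AAV-GP73 arrays had 7, 6 and 6, and the AAV-V HFD arrays had 5, 4 and 4. The lowest signal well above background lay between 5.95 and 8.39 on the 9 arrays, in the arbitrary units of processed signal. In these bulk livers, fewer cells of a type and less RNA per cell cannot be told apart.

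**Figure D1:**
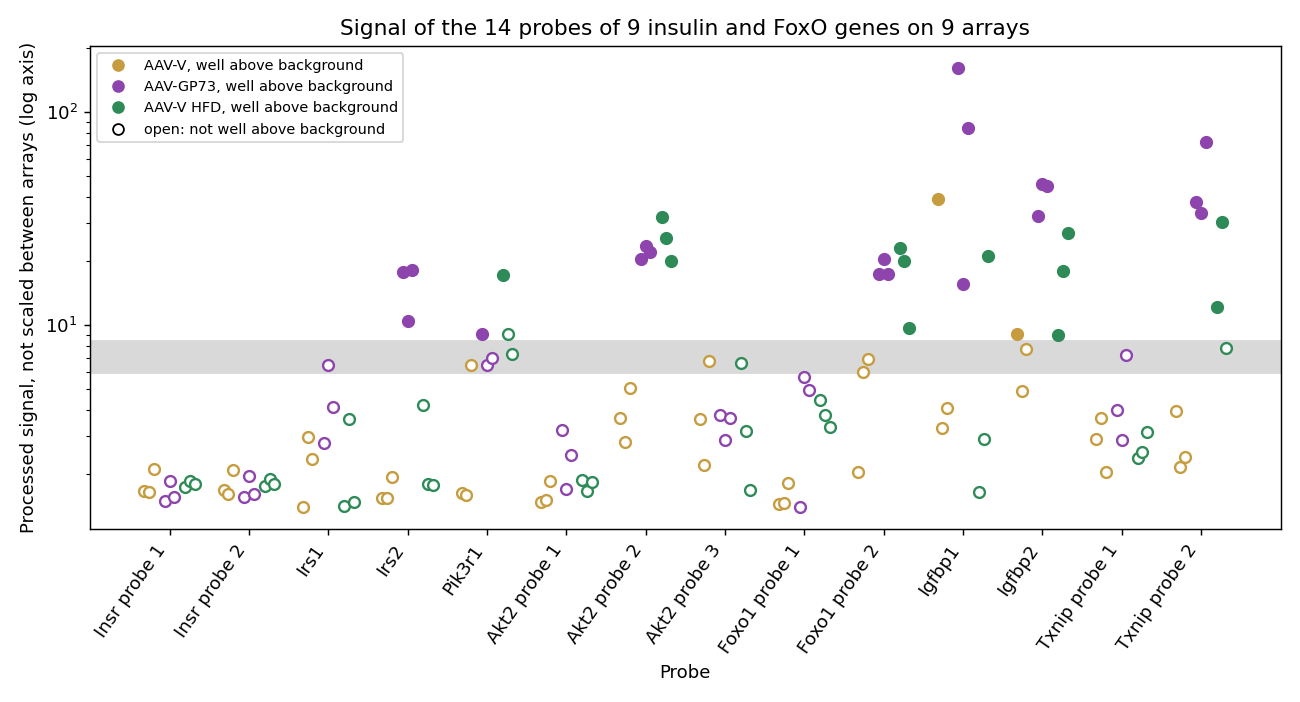
Processed signal, on a log axis and before scaling between arrays, of the 14 probes on the 9 arrays, with 1 point per array, filled where the spot was well above background and open where it was not; the grey band spans the lowest well-above-background signal of the 9 arrays. The Irs2 points are filled in AAV-GP73 alone, at 10.4 to 18.2, and the Insr points all lie at or under 2.1.

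Insr, which codes for the receptor, had 2 probes, and both lay at the bottom of the scale. The first gave signals of 1.65 to 2.10 in AAV-V, 1.50 to 1.86 in AAV-GP73, with 1.74 to 1.86 in AAV-V HFD, and the second of 1.61 to 2.08, 1.55 to 1.96 and 1.76 to 1.89. Insr was therefore not measurable on these arrays, and no difference can be given. The first probe lies on the minus strand of chromosome 8 at chr8:3159473-3159532 in the mm9 coordinates of the array files, and its sequence is shown as an example of a probe with an open reading frame that gave no signal.
Insr, probe A_52_P6490: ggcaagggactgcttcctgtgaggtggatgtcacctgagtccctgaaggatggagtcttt
Irs1, the other receptor substrate, also had no detected array, with signals of 1.40 to 2.97 in AAV-V, 2.79 to 6.47 in AAV-GP73, with 1.42 to 3.63 in AAV-V HFD. The highest Irs1 value, in AAV-GP73, lay within the range of the lowest detected signals but was not flagged as detected.

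Irs2 was the gene of this set that was detected in AAV-GP73 alone. Its probe, at chr8:11004490-11004549 (mm9, minus strand), was read as 17.8, 10.4 and 18.2 in the AAV-GP73 arrays, all well above background. The 3 AAV-V arrays read 1.54, 1.54 and 1.93, and the 3 AAV-V HFD arrays read 4.23, 1.80 and 1.78, none well above background. All AAV-GP73 arrays were higher than every array of the other groups, with no overlap, before and after scaling. The scaled AAV-GP73 values, 3.74, 2.95 and 3.42, lay under the lowest detected signals of the AAV-V arrays, 3.77 to 3.94. Such a level would not have been detected in AAV-V, so detection by itself does not separate AAV-GP73 from AAV-V. The probe sequence is shown because the result rests on this single probe.
Irs2, probe A_66_P102260: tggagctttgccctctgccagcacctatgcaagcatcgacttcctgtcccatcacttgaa
On the scaled log2 signal the AAV-GP73 mean was 3.37 ± 0.40 (SD, n = 3), against 1.73 ± 0.09 in AAV-V and 0.80 ± 0.53 in AAV-V HFD. The difference in limma was 1.64 (SE 0.32, adjusted p = 0.00119) for AAV-GP73 versus AAV-V, which is 1.00 above the median of all tested probes. It was 2.57 (SE 0.32, adjusted p = 0.0017) for AAV-GP73 versus AAV-V HFD. Because AAV-V HFD gives only a bound, with the lowest detected signal of an array standing in for a dimmer probe, the last difference was at least 1.97-fold higher. Bounds of this kind hold only on the scaling used here. Against AAV-V the same bound fell under 1, with the scaled floor at 3.77 to 3.94 in AAV-V, and no fold is given. The value for AAV-V HFD versus AAV-V was -0.93 (adjusted p = 0.0311), short of a 2-fold change, and compares arrays that are all below background. The methods' t-test gave an adjusted p of 0.129 for AAV-GP73 versus AAV-V HFD, while 6 of 6 scalings of the arrays kept the limma call, with log2 fold changes of 2.28 to 2.92. The study itself named Irs2 from these arrays, so its direction here is not independent evidence.

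Pik3r1 and Akt2 carry the signal from the receptor substrates onward. Pik3r1, which codes for the regulatory subunit of phosphoinositide 3-kinase, was well above background on 1 of 3 AAV-GP73 arrays and 1 of 3 AAV-V HFD arrays and was not tested. Its signals were 1.62, 1.60 and 6.47 in AAV-V, 9.06, 6.51 and 7.02 in AAV-GP73, and 17.2, 9.08 and 7.32 in AAV-V HFD. On the scaled log2 signal the groups overlapped, with means of 2.35 in AAV-V, 2.36 in AAV-GP73 and, for AAV-V HFD, 2.93, and AAV-V replicate 3 held the highest value, 3.56, while not well above background.

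Akt2 was tested through 1 of its 3 probes, that at chr7:28424405-28424464 (mm9, plus strand). This probe read 3.65, 2.82 and 5.06 in AAV-V, none well above background. It read 20.3, 23.4 and 22.1 in AAV-GP73, with 32.2, 25.5 and 20.0 in AAV-V HFD, all well above background. Both treated groups were above AAV-V without overlap, and they overlapped each other. The Akt2 log2 fold change was 1.02 (SE 0.27, adjusted p = 0.00638) for AAV-GP73 versus AAV-V, or 0.38 above the median of all tested probes, and the bound was at least 1.04-fold higher. For AAV-V HFD versus AAV-V it was 1.32 (SE 0.27, adjusted p = 0.0023), at least 1.28-fold higher. The difference between AAV-GP73 and AAV-V HFD was -0.30 (SE 0.27, 95% interval -0.88 to 0.28, adjusted p = 0.628). Without AAV-V replicate 2 the first change was 0.85 and without AAV-GP73 replicate 2 it was 0.94, both under the 2-fold threshold, and 5 of 6 scalings kept the call.
The other Akt2 probes were well above background on no array, with signals up to 6.76, so they give no measure of a difference between groups. The Akt2 probes thus differ in detection, and the calls rest on 1 of them. One undetected probe spans 141 bases of the genome and so joins sequence across an intron, and the other lies in 1 stretch with an open frame.
Akt2, probe A_51_P408044, chr7:28421973-28422113: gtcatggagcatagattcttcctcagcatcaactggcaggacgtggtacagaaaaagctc
Akt2, probe A_55_P2066523, chr7:28418226-28418285: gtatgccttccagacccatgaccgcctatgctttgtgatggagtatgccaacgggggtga

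Foxo1, the transcription factor that AKT holds in check, was not called in any comparison on the scaling used here. Its tested probe, at chr3:52150946-52151005 (mm9), read 2.04, 6.03 and 6.91 in AAV-V, 17.3, 20.5 and 17.4 in AAV-GP73, and 23.1, 19.9 and 9.69 in AAV-V HFD. The AAV-V arrays were not well above background and the other 6 arrays were. After scaling the groups overlapped in each comparison. The log2 fold change was 0.53 (SE 0.42, adjusted p = 0.283) for AAV-GP73 versus AAV-V and 0.45 (adjusted p = 0.373) for AAV-V HFD versus AAV-V. Between AAV-GP73 and AAV-V HFD the 95% interval ran from -0.83 to 0.98. Scaling by the 75th percentile of all probes gave 1.52 and 1.41 for AAV-GP73 and AAV-V HFD versus AAV-V, and spike-in scaling 2.21 and 1.79, all called. The values also depended on 1 array: without AAV-V replicate 1, which held the lowest signal, the changes versus AAV-V became -0.02 and -0.09. The second Foxo1 probe was detected on no array, with signals of at most 5.70.

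Igfbp1 codes for a secreted IGF-binding protein whose liver mRNA insulin represses. Its probe, at chr11:7102442-7102501 (mm9), read 39.2, 3.27 and 4.06 in AAV-V, 161, 15.6 and 83.7 in AAV-GP73, and 1.65, 2.93 and 21.0 in AAV-V HFD. All 3 AAV-GP73 arrays and 1 array of each other group were well above background. The spread inside each group was larger than for any other tested gene of the set, with an SD of 1.99 in AAV-V, 1.71 in AAV-GP73, with 2.31 in AAV-V HFD on the scaled log2 signal. The log2 fold change was 1.35 (SE 1.19, adjusted p = 0.335) for AAV-GP73 versus AAV-V, -2.24 (adjusted p = 0.131) for AAV-V HFD versus AAV-V and 3.59 (SE 1.19, adjusted p = 0.149) for AAV-GP73 versus AAV-V HFD. None passed the test. Without AAV-V HFD replicate 3 the last value was 4.90 (adjusted p = 0.0454) and that for AAV-V HFD versus AAV-V was -3.54 (adjusted p = 0.0223). Each was called in only 1 of 9 fits that left out 1 array, and in 0 of 6 scalings.

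Igfbp2, a second IGF-binding protein made by hepatocytes, was detected on the most arrays, 7 of 9. Its probe lies at chr1:72898677-72898736 (mm9) and ends in a TAA stop codon, in capitals.
Igfbp2, probe A_55_P2056729: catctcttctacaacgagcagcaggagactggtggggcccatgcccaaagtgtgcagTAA
It read 9.07, 4.90 and 7.70 in AAV-V, 32.5, 45.8 and 44.8 in AAV-GP73, and 8.96, 17.9 and 26.9 in AAV-V HFD. The AAV-GP73 arrays did not overlap those of AAV-V after scaling. The log2 fold change of 1.00 (SE 0.48, 95% interval -0.05 to 2.05) had an adjusted p of 0.0874 and was not called. Under a fit to those 2 groups alone it was called, with an adjusted p of 0.0177. The values were -0.23 (adjusted p = 0.699) for AAV-V HFD versus AAV-V and 1.23 (adjusted p = 0.214) for AAV-GP73 versus AAV-V HFD. Without AAV-V HFD replicate 3 the latter was called at 1.82 (adjusted p = 0.0412). That was 1 of 9 fits that left out 1 array, and 0 of 6 scalings called it.

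Txnip showed the largest called change of the set in AAV-GP73 versus AAV-V. Its tested probe, at chr3:96365340-96365399 (mm9), read 3.96, 2.15 and 2.39 in AAV-V, none well above background. It read 37.8, 33.7 and 72.6 in AAV-GP73, all well above background, and 12.1, 30.3 and 7.77 in AAV-V HFD, where 2 of 3 were. Every AAV-GP73 array was above every AAV-V and AAV-V HFD array after scaling. The log2 fold change for AAV-GP73 versus AAV-V was 2.52 (SE 0.42, adjusted p = 0.000455), or 1.88 above the median of all tested probes, and the bound was at least 2.15-fold higher. For AAV-V HFD versus AAV-V it was 0.93 (SE 0.42, adjusted p = 0.0822), but it was called in 4 of 6 scalings, at up to 2.26, among them quantile normalization (1.50, adjusted p = 0.0171) and the authors' log2 table (1.66, adjusted p = 0.0182). For AAV-GP73 versus AAV-V HFD it was 1.59 (SE 0.42, 95% interval 0.67 to 2.51, adjusted p = 0.0697), short of the threshold, and without AAV-V HFD replicate 2 it was 2.07 (adjusted p = 0.0206). Without AAV-V replicate 1 the change for AAV-V HFD versus AAV-V was called at 1.20 (adjusted p = 0.0456). Of the 9 fits that left out 1 array, only 1 called each of these comparisons. AAV-GP73 versus AAV-V HFD was called in 1 of 6 scalings.
The other Txnip probe was detected on no array, at 2.05 to 7.22, so this result too rests on 1 probe.
Txnip, probe A_55_P2006255, chr3:96364206-96364265, not detected: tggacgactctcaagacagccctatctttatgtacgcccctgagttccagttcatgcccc

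Over the 6 tested genes, 3 were called for AAV-GP73 versus AAV-V, all higher (Irs2, Akt2 and Txnip), where a call needed at least a 2-fold change and an adjusted p under 0.05. Among all tested probes 51.9% were called in that comparison, 34% higher and 17.9% lower. For AAV-V HFD versus AAV-V, 1 of 6 was called (Akt2, higher), against 42% of all probes, 25.1% higher and 16.9% lower. For AAV-GP73 versus AAV-V HFD, 1 of 6 was called (Irs2, higher), against 2.68% of all probes, 2.09% higher and 0.592% lower. On the scaled signal, 4 of the 6 genes (Irs2, Akt2, Igfbp2 and Txnip) had every AAV-GP73 array above every AAV-V array, a pattern that 45.7% of all probes showed, with 21.4% in the opposite order. AAV-V HFD and AAV-V arrays did not overlap in 2 genes, Akt2 (higher) and Irs2 (lower, below background in both groups), against 34.6% and 21.5% of all probes. AAV-GP73 arrays lay above all AAV-V HFD arrays in 2 genes, Irs2 and Txnip, against 15.8% of all probes, and 8.27% lay below. Background correction by normexp with an offset of 50, larger than every Irs2 and Akt2 signal, turned the AAV-GP73 versus AAV-V values of Irs2, Akt2 and Txnip to -0.65, -0.58 and -0.16, with the median of all probes at -0.58. The shares of genes called were near or below the background in the first 2 comparisons and rest on 6 genes. No gene of the 6 was detected on all 3 AAV-V replicates, so each passed the filter through a treated group. Irs2, Igfbp1 and Txnip passed through AAV-GP73 alone, the group in which they were highest, and the counts of higher calls are therefore given as a description.

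**Figure D2:**
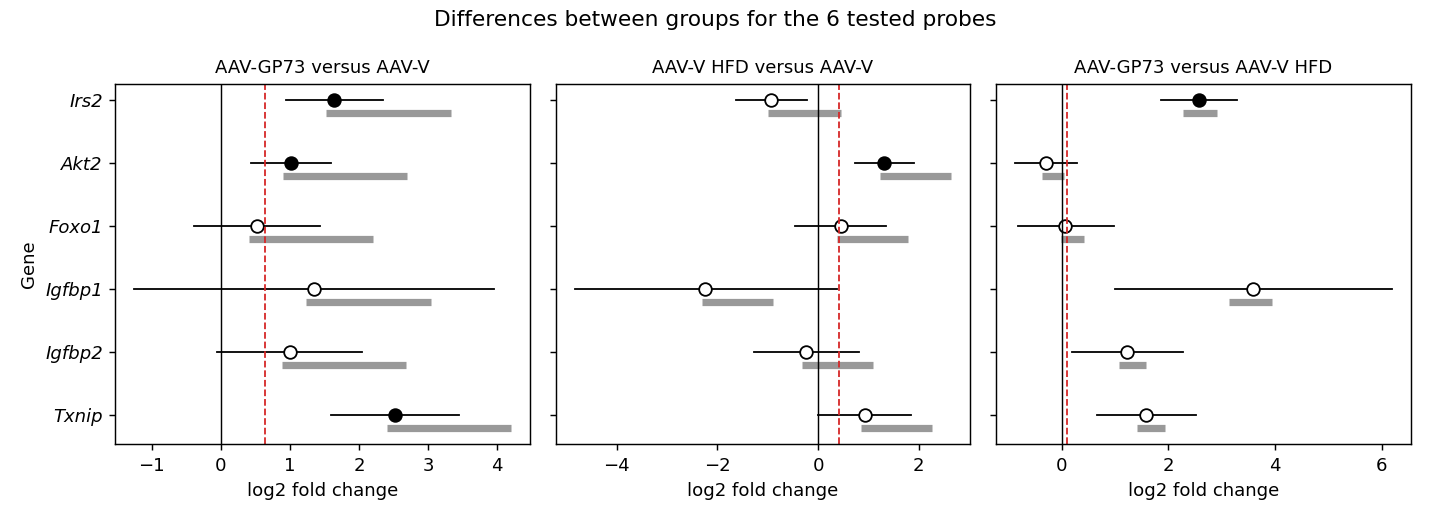
Log2 fold change of the 6 tested probes in the 3 comparisons; circles with black lines are the limma estimate and its 95% interval, filled where called, grey bars span the estimate over 6 scalings of the arrays, and the red dashed line is the median of all tested probes. The grey bars of Irs2 and Txnip stay above 0 in AAV-GP73 versus AAV-V, at 1.53 to 3.33 and 2.40 to 4.20, and that of Irs2 in AAV-V HFD versus AAV-V crosses 0.

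Other genes of the pathway were drawn from 8 lists, which held 91 genes outside the 9, each read by its brightest probe. Of these 90 were on the array and 34 were tested, 16 of them detected on all 9 arrays. In AAV-GP73 versus AAV-V 12 were called higher and 6 lower, in AAV-V HFD versus AAV-V 9 and 5, and in AAV-GP73 versus AAV-V HFD 3 and 2. Over the brightest probes of all genes tested, 33.2% were called higher and 19.4% lower in the first comparison, 24.8% and 18.2% in the second, and 2% and 0.59% in the third. The median log2 fold change of the 34 genes was 0.59, 0.29 and 0.21, against 0.60, 0.37 and 0.09 over all genes.

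The FoxO target list lay above the median of all genes. Of its 20 genes 8 were tested, 3 of them Igfbp1, Irs2 and Txnip. In AAV-GP73 versus AAV-V 7 of 8 were called higher and none lower, with a median log2 fold change of 2.04 against 0.60 over all genes. Of these 8, 5 passed the filter through AAV-GP73 alone (Igfbp1, Irs2, Txnip, G6pc and Pnpla2), and Klf15 was undetected in AAV-V, so the count and the median were shaped by the filter and support no direction of the list. Pck1 and Bnip3 were detected in all groups. Pck1, the gluconeogenic enzyme, read 16.8, 20.1 and 33.8 in AAV-V, 641, 953 and 787 in AAV-GP73, with 238, 317 and 440 in AAV-V HFD, detected on all 9 arrays with the groups in separate ranges of unscaled signal. Between AAV-GP73 and AAV-V HFD the scaled difference was 1.20 (limma, adjusted p = 0.156) and was not called. Its log2 fold change was 3.59 (adjusted p = 7.85e-05) for AAV-GP73 and 2.39 (adjusted p = 0.000951) for AAV-V HFD, each versus AAV-V. Bnip3, a mitophagy receptor, was also detected throughout, at 2.46 (adjusted p = 0.000116) and 2.00 (adjusted p = 0.000641). For Klf15, a fasting-induced transcription factor, AAV-GP73 was at least 1.65-fold higher (adjusted p = 0.0011) and AAV-V HFD at least 1.12-fold (adjusted p = 0.00863).
In AAV-V HFD versus AAV-V 3 of 8 were called higher (Pck1, Bnip3 and Klf15), against 24.8% of all genes. The median was 0.88, against 0.37 over all genes. In AAV-GP73 versus AAV-V HFD 3 of 8 were called higher, namely G6pc, Irs2 and Pnpla2, all of which passed the filter through AAV-GP73 alone. G6pc, the final enzyme of glucose production, read 6.05, 3.74 and 8.58 in AAV-V, 46.6, 37.1 and 48.2 in AAV-GP73, with 14.8, 11.9 and 1.87 in AAV-V HFD. Its difference between AAV-GP73 and AAV-V HFD was 2.58 (adjusted p = 0.0228), with 2 of 3 AAV-V HFD arrays detected. Pnpla2, the adipose triglyceride lipase, differed by 1.13 (adjusted p = 0.0488), with 1 of 3 AAV-V HFD arrays detected. G6pc was called in 4 and Pnpla2 in 2 of 6 scalings of the arrays there, all with the same sign.

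The insulin-induced list moved the other way in AAV-GP73. Of its 10 genes 5 were tested, and for AAV-GP73 versus AAV-V 4 were called lower and none higher, with a median of -1.18 against 0.60 over all genes. Fasn, the fatty acid synthase, read 51.5, 41.3 and 45.3 in AAV-V, all detected, and 7.01, 7.42 and 4.70 in AAV-GP73, none detected. On the scaling used here it was at least 19.3-fold lower (limma, adjusted p = 1.22e-05). That bound changes with the scaling: over 6 scalings the log2 fold change ran from -4.72 to -2.73, called in all 6. Srebf1 was called lower as well, but it was detected on no array of either group, so that call compares values below background. Acly, detected on all 9 arrays, fell by 1.06 (adjusted p = 0.0465), but its sign turned under 1 of 6 scalings. For AAV-V HFD versus AAV-V, Fasn fell by 3.44 and Scd1, a desaturase, by 3.15, and none of the 5 rose. In AAV-GP73 versus AAV-V HFD, Scd1 was higher by 2.29 (adjusted p = 0.0106), and Srebf1, the lipogenic transcription factor, was at least 1.98-fold lower (adjusted p = 0.00511), having passed the filter through AAV-V HFD alone. The study had named Fasn, Acly and Srebf1 from these arrays, so their counts here are not independent evidence.

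**Figure D3:**
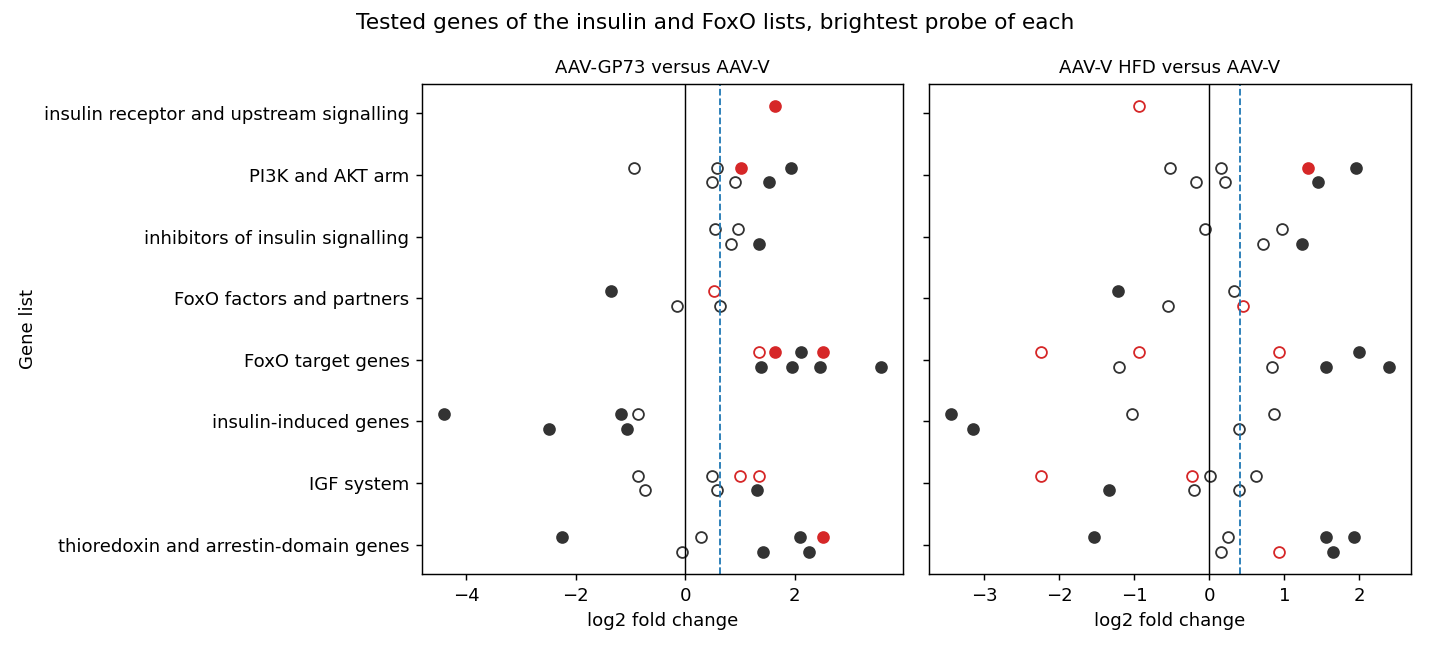
Log2 fold change of the tested genes of the 8 lists, by their brightest probe, versus AAV-V, in AAV-GP73 on the left and AAV-V HFD on the right; filled points are called, red points are the 9 genes of this set, and the blue dashed line is the median of all tested probes. The FoxO targets lie right of the line in AAV-GP73, with a median of 2.04 over genes of which most passed the filter through that group alone, and on this scaling the insulin-induced genes lie left of it, with a median of -1.18.

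In the list of the receptor and upstream signalling 1 of 8 genes was tested, and it was Irs2. In the PI3K and AKT list 7 of 20 genes were tested and 3 were called higher versus AAV-V under GP73 as well as under the diet. Over all genes 33.2% and 24.8% were called higher in these comparisons. The 3 were Eif4ebp1, a repressor of cap-dependent translation, Gsk3a, a glycogen synthase kinase, and Akt2. These were undetected on every AAV-V array, so they passed the filter through the treated groups and AAV-V gives only a bound. For Eif4ebp1, AAV-GP73 was at least 1.02-fold (adjusted p = 0.000182) and AAV-V HFD at least 1.03-fold higher (adjusted p = 0.000396). For Gsk3a the bounds were at least 1.08-fold (adjusted p = 0.00431) and at least 1.01-fold higher (adjusted p = 0.0082). None was called between AAV-GP73 and AAV-V HFD. Pik3ca, Rheb and Rps6kb1 were detected on all 9 arrays and none was called, with log2 fold changes of -0.93, 0.49 and 0.91 for AAV-GP73 versus AAV-V.
Among the inhibitors of insulin signalling 4 of 14 were tested. Against 33.2% and 24.8% of all genes, 1 of these 4 was called higher in each treated group. This was Ptpn1, the phosphatase that acts on the receptor, with adjusted p of 0.00801 and 0.0159. It was undetected in AAV-V and its bound fell under 1 in both comparisons, so no fold is given. The receptor inhibitor Grb14 was detected throughout and not called.
Among the FoxO factors and partners 4 of 10 were tested. Only Ywhaz, a 14-3-3 protein of the family that retains phosphorylated Foxo1 in the cytoplasm, was called of these 4, and it was lower in both groups, by -1.36 (adjusted p = 0.00366) in AAV-GP73 and -1.22 (adjusted p = 0.00891) in AAV-V HFD, with the sign turned under 1 of 6 scalings in each.

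In the IGF list, which also holds Igfbp1 and Igfbp2, 7 of 13 were tested. Igfbp7 was called higher in AAV-GP73 versus AAV-V (1.31, adjusted p = 0.00418) and Igfbp3, the main carrier of IGF1 in plasma, lower in AAV-V HFD versus AAV-V (-1.34, adjusted p = 0.00442). Igf1 itself, detected on all 9 arrays, was not called, at 0.49 and 0.01.
In the thioredoxin and arrestin-domain list, which holds Txnip, 7 of 12 were tested. For AAV-GP73 versus AAV-V the calls were 4 higher and 1 lower, against 33.2% higher and 19.4% lower over all genes. Txnrd1, a thioredoxin reductase, was undetected in AAV-V, with bounds of at least 1.66-fold higher for AAV-GP73 (adjusted p = 0.000173) and at least 1.31-fold higher for AAV-V HFD (adjusted p = 0.000792). Txn1, thioredoxin, was detected on all arrays and differed by 1.43 and 1.55. Arrdc2, a relative of Txnip, was lower by -2.25 (adjusted p = 0.0012) and -1.54 (adjusted p = 0.0132), so the arrestin-domain genes tested did not move together.

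Markers of other cell types were read as unscaled sums and, where tested, on the scaled signal. The summed signal of the 5 erythroid markers on the array was 176 to 502 in AAV-V, 4490 to 22100 in AAV-GP73, with 1050 to 1150 in AAV-V HFD, with 2 to 3, 3 to 5 and 2 to 3 of them detected. The Kupffer cell markers summed to 23.0 to 23.9, 99.7 to 122 and 80.2 to 154, with 0 to 1, 3 to 5 and 3 to 6 of 6 detected. The endothelial markers summed to 12.4 to 19.4, 38.5 to 69.4 and 11.7 to 38.7, the stellate cell markers to 72.8 to 128, 220 to 309 and 123 to 192, and the pancreas markers to 32.0 to 45.5, 93.4 to 123 and 33.6 to 162. The hepatocyte markers summed to 10100 to 13100, 31000 to 34900 and 19100 to 26600, and all of these sums are of unscaled signal. On the scaled signal, for AAV-GP73 versus AAV-V, 2 of 3 tested erythroid markers were called higher (median 3.85). These were the hemoglobin genes Hba-a1 and Hba-a2, whose probes read nearly alike on each array and are not separate measurements. The other, Alas2, was not called (0.75, limma, adjusted p = 0.329). In the same comparison 1 of 3 Kupffer cell markers was higher, and of 3 stellate cell markers 1 was higher and 1 lower, with a median of 0.66. The 1 tested endothelial marker was called higher, as was 1 of 2 pancreas markers. Both passed the filter through AAV-GP73 alone, the group in which they were highest, so these calls are only a description. Of the hepatocyte markers 2 of 10 were higher and 1 lower, with a median of 0.02, against 0.60 over all genes. Over all genes 33.2% were called higher and 19.4% lower in this comparison. At most 1 of 5 cholangiocyte and 1 of 5 adipocyte markers was detected on any array. The part of other cell types in the values of Irs2, Akt2 and Txnip was not tested.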

How the data were processed

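Liver RNA of 9 mouse samples (AAV-V, AAV-GP73 and AAV-V HFD, 3 each) was hybridised to one-colour Agilent arrays. The deposited scanner files hold intensity per spot (the processed signal, after the software's background subtraction) and the flag for spots well above background; the file headers give Feature Extraction 12.0.3.1, while the submitters' processing notes name version 10.7 and limma. The deposited series table holds log2 values that the authors normalized; it was used as an alternative.

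The processed signal was taken to log2, flagged spots were left out, spots of a probe were averaged, and each array was shifted to a common 75th percentile of the 2669 probes well above background on all 9 arrays, because most probes were not detected. The 6593 of 56605 probes that were detected on each array of 1 or more groups were tested with lmFit and eBayes (R 4.3.3, limma 3.58.1) over all 3 groups, with Benjamini-Hochberg adjustment over all of them; calls needed a 2-fold change and an adjusted p under 0.05. No pair of arrays was identical, and the fit was tested on simulated data. The number of arrays limits the precision; for single values, 3 arrays against 3 cannot go below an exact permutation p of 0.1. Probe coordinates and names are those of the array design (mm9). The genes and lists were chosen with earlier results of these data known. All 14 probes of the 9 genes are named; of the other list genes, those named are up to 3 called genes per list and comparison with the largest changes, and genes detected on all 9 arrays. Some list genes that are in the counts are not reported here by name. A rule for genes of like pattern named none, since no gene of the set was detected on all arrays. Alternatives were other scalings, background correction, filters, tests, and leaving out each array. Comparisons with AAV-V share its arrays.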

Additional observations from a re-analysis of the deposited data

Results flagged for a closer look

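The Irs2 log2 difference between AAV-GP73 and AAV-V HFD was 2.57 (limma, SE 0.32, adjusted p = 0.0017, 3 arrays each), which is also the test of whether the changes of AAV-GP73 and AAV-V HFD versus AAV-V differ. It was picked out because this difference passed the limma test, with Irs2 higher in AAV-GP73 than in every AAV-V HFD array. Irs2 was undetected on every AAV-V and AAV-V HFD array and entered the test through AAV-GP73 alone, the group where it was highest. The separation of the arrays is therefore not independent of the filter. The methods' t-test did not pass after adjustment. The AAV-V HFD arrays were on a separate slide, so diet and slide cannot be told apart here.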

How the results depend on the processing

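Depth here means signal over background: 7 of the 14 probes were never well above it, and undetected AAV-V values are read against a higher scaled floor. No slide block could be fitted, since each slide holds AAV-V HFD arrays or the others alone. An unfiltered table moved the median of all probes to -1.61 in AAV-GP73 versus AAV-V and called 47067 probes (6 of the gene set's), 45091 (7) and 78 in AAV-GP73 versus AAV-V, AAV-V HFD versus AAV-V and AAV-GP73 versus AAV-V HFD, in that order throughout. Restricting to probes detected on all 9 arrays called 1251, 1088 and 71, with none of the gene set tested.

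Against 3421, 2770 and 177 calls, and 3, 1 and 1 of the set, spike-in scaling called 5222 (6), 4513 (4) and 393 (2), with 98.2%, 98.2% and 94.9% of calls higher against 65.4%, 59.7% and 78%. Scaling by the 75th percentile of all probes called 5 and 3 of the set in the first 2 comparisons, with 91.3% and 95.2% higher and medians of 1.63 and 1.36, and quantile normalization, the authors' log2 table and the median of detected probes (chosen after seeing the data) called 2 in the second. In the third, 48 probes were called under quantile normalization and 27 under the authors' table. Normexp with an offset of 50, which exceeds most signals of the set, called 893 (0), 962 (2) and 49 (0), with 17% and 8.32% higher in the first 2. The methods' t-test called 389 (2) in the third without adjustment, and 1697 in the second and 13 (0) in the third with it. Dropping the fold minimum called 2 of the set in the second.

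Reversed values under normexp were, for AAV-GP73 versus AAV-V, Igfbp1 -0.24, Igfbp2 -0.36, Akt2 -0.58, Foxo1 -0.67, Irs2 -0.65 and Txnip -0.16; for AAV-V HFD versus AAV-V, Akt2 -0.60, Foxo1 -0.81 and Txnip -0.74; and Akt2 0.02 in the third. For AAV-V HFD versus AAV-V, Irs2 turned to 0.02 (all probes), 0.39 (quantile), 0.41 (spike-in) and 0.45 (authors' table), and Igfbp2 to 0.72 (all probes) and 1.10 (spike-in). In AAV-GP73 versus AAV-V HFD, Akt2 turned to 0.05 (spike-in) and Foxo1 to -0.02 (quantile) and -0.01 (authors' table). The cause was not tested.

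Leaving out 1 array called 3121 to 3614, 2416 to 3074 and 39 to 188 probes (39 without AAV-GP73 replicate 3), and 2 to 4, 1 to 2 and 1 to 3 of the set. Foxo1 ranged from -0.02 to 0.79, -0.09 to 0.72 and -0.08 to 0.22, with -0.04 in the last without AAV-GP73 replicate 2, and Igfbp2 in the second from -0.82 to 0.35. Irs2 and Txnip kept their calls in AAV-GP73 versus AAV-V in 9 of 9, as did Irs2 in the third and Akt2 in the second.

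A fit with the replicate number as a block called 3417, 2782 and 125 probes, but same-numbered arrays correlated at -0.11 to 0.17, with 2 of 9 pairs over 0.1, so the numbers were not taken as pairs.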
